A study of Mus musculus with 11 samples.

Results

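The genes described here are 8 genes listed as sensory neuron markers: Isl2, Avil, Calca, Calcb, Tac1, Pou4f1, Runx1 and Runx3. Which cells of the ganglia gave their signals was not tested, so a signal here does not show sensory neurons. They were followed through every probe set that the platform annotation assigns to just 1 of these symbols, and 6 of the 8 genes had such a probe set, 10 probe sets in all, among 12393 genes so covered on the array. Calca and Pou4f1 had none in the annotation used and were not analysed here. The list was selected on earlier results of these same arrays, namely the signals of the members in both genotypes, so their differences between genotypes are a description. Whether a member passed the threshold of the fit across all genes is stated below, but it is no independent evidence for that member.

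The samples were laser-captured sympathetic ganglia of male C57BL mice aged 78 weeks and kept on normal chow. In all, 6 arrays came from apoE-/- mice, which lack apolipoprotein E (called Apoe-deficient below), and 5 came from wild-type mice. The series title sets the ganglia against the diseased aorta, and Apoe-deficient mice are a standard model of atherosclerosis. The deletion affects the whole body, the labels do not say which sympathetic ganglia were taken, and they tie no array to an animal. How many arrays there are limits how precise any comparison can be, and p-values would be too small wherever an animal gave more than 1 array.

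Sensory neurons of the dorsal root ganglia and noradrenergic neurons of the sympathetic ganglia both arise from the neural crest. The LIM homeodomain factors Isl1 and Isl2 and the POU factor Pou4f1 (Brn3a) help to set up the sensory fate, while Runx1 shapes the nociceptor lineage and Runx3 the proprioceptor lineage. Advillin, the product of Avil, is an actin-binding protein of the gelsolin family and is widely used to mark sensory neurons. Calca and Calcb encode the calcitonin gene-related peptides (CGRP) and Tac1 encodes substance P, which peptidergic nociceptors release. Sympathetic neurons mostly use noradrenaline, but a cholinergic minority makes peptides such as Vip, and CGRP is known in some of these cells.

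Apoe checked the labels. Its deposited signal, a linear probe set intensity, was 143 ± 84.6 (SD, n = 6) in Apoe-deficient and 15155 ± 3020 (SD, n = 5) in wild-type arrays, with no overlap (exact two-sided permutation p = 0.0022, the smallest these group sizes allow). The tissue label was checked with noradrenergic markers: 12 of 12 measured genes were above background, and Th, tyrosine hydroxylase, read 13300 ± 3333 (SD, n = 6) in Apoe-deficient and 14555 ± 2248 (SD, n = 5) in wild-type ganglia. Dbh, dopamine beta-hydroxylase, read 11644 ± 3198 (SD, n = 6) and 14358 ± 2540 (SD, n = 5). Of 8433 genes tested with limma, 163 differed between genotypes at a Benjamini-Hochberg adjusted p below 0.05.

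Before the members are described, 5 arrays need naming. On the array's own hybridisation controls, which are added to each sample in known amounts, Apoe-deficient replicates 2, 3 and 4 read low. A middle level held wild-type replicates 3, 4 and 5 with Apoe-deficient replicate 5, and a high level held wild-type replicates 1 and 2 with Apoe-deficient replicates 1 and 6. Wild-type replicates 1 and 5 stood apart in peptide genes: Vip, which encodes vasoactive intestinal peptide, read 4881 and 4414 there against 28.8 to 533.9 in the other 9 arrays. The 533.9 was Apoe-deficient replicate 1, and the median of those 9 arrays was 53.4. Slc18a3, the vesicular acetylcholine transporter, read 229.5 and 234.4 in wild-type replicates 1 and 5 against 7.7 to 65.6 elsewhere. Differences of the members past the filter, Calcb and Gal are given with and without them, and their part in the members' differences was not tested otherwise.

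The arrays carry no detection calls, so background was read from 88 probe sets of 65 genes restricted to other organs, such as retina, lens, testis and liver. The 95th percentile of these reference probe sets ran from 114 to 196 across the 11 arrays, and a member was called above background where it exceeded that value on at least 5 arrays. By this rule 56.1% of all single-gene probe sets were above background, as were 5 of the 88 reference probe sets. Only 3 of the 10 member probe sets were: those of Isl2 and Avil, and 1 of the 5 of Runx1. The same 3 passed the filter on low values used for the test. Calcb, Tac1, Runx3 and the other 4 Runx1 probe sets were not above background, so their low readings bound the signal and give no sure level. With the 99th percentile of the reference, or with all 11 arrays required to exceed it, Avil alone remained above background.

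**Figure D1:**
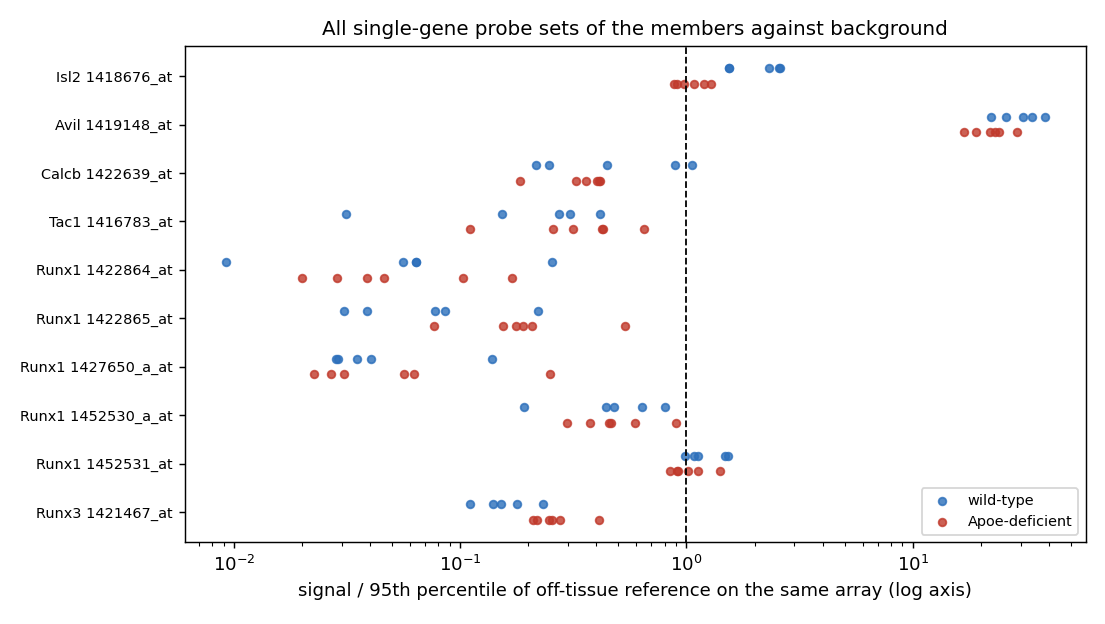
Signal of each of the 10 member probe sets on each array divided by that array's reference background (log axis; the dashed line at 1 marks the 95th percentile of off-tissue probe sets), for 6 Apoe-deficient and 5 wild-type arrays. Avil lies between 16.8 and 38.2 times the reference, Isl2 and 1 Runx1 probe set lie around 1 to 2.58 times, and the rest lie below, except for Calcb in 1 wild-type array at 1.06.

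The 250 bases upstream of the starts of Isl2 and Avil are shown because these 2 members were lower in Apoe-deficient ganglia. Sequences are from RefSeq on GRCm38.p6, both on the plus strand, Isl2 at chr9:55540899-55541148 and Avil at chr10:127000459-127000708. Capitals mark matches to the motifs searched.
Isl2: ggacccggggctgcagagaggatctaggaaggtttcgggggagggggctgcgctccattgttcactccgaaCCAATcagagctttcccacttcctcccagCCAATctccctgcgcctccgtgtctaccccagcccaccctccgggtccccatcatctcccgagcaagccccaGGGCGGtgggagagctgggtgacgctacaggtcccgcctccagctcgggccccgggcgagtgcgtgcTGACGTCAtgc
Avil: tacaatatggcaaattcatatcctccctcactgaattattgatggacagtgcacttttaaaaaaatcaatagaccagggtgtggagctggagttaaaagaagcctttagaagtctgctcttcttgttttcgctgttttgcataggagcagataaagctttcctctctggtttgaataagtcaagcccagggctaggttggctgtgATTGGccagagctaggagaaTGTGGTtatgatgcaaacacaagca
The window of Isl2 is rich in G and C (66.8%) and that of Avil is poor in them (42%), against a median of 52.4% over all promoters in the table.

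Matches were sought on both strands. The Isl2 window holds the CCAAT box (CCAAT) at positions -179 and -150 from the start, the GC box (GGGCGG) at -78 and the cAMP response element (TGACGTCA) at -11. The Avil window holds a CCAAT box on the minus strand at -45 and the RUNX core (TGTGGT) at -25. Over 32851 promoter windows of the same length, 33.8% hold the CCAAT box, 32.7% the GC box, 1.55% the cAMP response element and 14.0% the RUNX core. The homeodomain core (TAATTA), found in 4.84% of all windows, the E-box (CANNTG), in 66.2%, and the TATA box (TATAAA), in 12.4%, are in neither window. These matches describe the letters of the windows and show no binding.

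Isl2, a LIM homeodomain transcription factor, lay close to background in Apoe-deficient ganglia and above it in all wild-type arrays. Its deposited signal over the 6 Apoe-deficient arrays ran from 111.9 through a median of 155 to 198.8. In wild-type replicates 1 to 5 it read 418.5, 292.9, 451.8, 175.9 and 418.1. The groups overlapped through wild-type replicate 4 alone: the other 4 wild-type arrays were above every Apoe-deficient array. Mean signals were 150.1 ± 33.0 (SD, n = 6) and 351 ± 115 (SD, n = 5), and the log2 difference, Apoe-deficient minus wild-type, was -1.09 (SE 0.20). Isl2 exceeded the reference in 3 of 6 Apoe-deficient arrays and in 5 of 5 wild-type arrays. Relative to the reference of its own array it stood at a median of 1.03 in Apoe-deficient and 2.31 in wild-type ganglia, and on the other 3 Apoe-deficient arrays its signal was not above that reference. Wild-type replicate 4, the lowest of its group, had the lowest reference of all arrays and stood at 1.54 times it.

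Avil was well above background in all 11 arrays and lower in Apoe-deficient ganglia without overlap. The 6 Apoe-deficient signals ran from 2406 through a median of 3202 to 3764. Wild-type replicates 1 to 5 read 5473, 4863, 4318, 4358 and 5017. Every wild-type array was thus above the highest Apoe-deficient array. Mean signals were 3134 ± 525 (SD, n = 6) and 4806 ± 483 (SD, n = 5), with a log2 difference of -0.62 (SE 0.13). Such a complete separation, with all Apoe-deficient signals the lower, was seen for 1.33% of genes tested.

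Runx1, the runt-domain factor of nociceptors that also acts in blood cell development, was read by 5 probe sets, of which 1 was above background. That one, 1452531_at, read 106.2 to 216.5 in Apoe-deficient arrays, with a median of 139.65, and 240.0, 204.0, 220.5, 111.9 and 249.6 in wild-type replicates 1 to 5. The groups overlapped, the log2 difference was -0.40 (SE 0.19), and the gene did not pass the threshold. The difference was -0.22 (SE 0.23) when control level was a block, -0.22 (SE 0.22) without the 3 low arrays and -0.24 (SE 0.22) without wild-type replicates 1 and 5. Within the high level it was -0.49 (SE 0.25), and within the middle level, which holds 1 Apoe-deficient array, 0.16 (SE 0.35). The probe set exceeded the reference in 3 of 6 Apoe-deficient and 4 of 5 wild-type arrays. The other 4 probe sets, 1452530_a_at, 1422864_at, 1422865_at and 1427650_a_at, exceeded it on 0 of 11 arrays, and their readings (log2 differences of -0.07, -0.11, 0.66 and 0.10) are background readings that measure no change of Runx1.

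Runx3, the related factor of proprioceptors, was at background in every array. Its signal ran from 28.4 to 66.0 in Apoe-deficient arrays and read 28.9, 26.4, 21.5, 17.3 and 38.1 in wild-type replicates 1 to 5. Means were 38.6 ± 13.9 (SD, n = 6) and 26.4 ± 7.90 (SD, n = 5), and the groups overlapped.

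The peptide genes Calcb and Tac1 were also at background. Calcb read 28.3 to 64.1 in Apoe-deficient arrays and 171.2, 84.0, 42.1, 28.2 and 144.9 in wild-type replicates 1 to 5, and exceeded the reference in 1 array, wild-type replicate 1. The 2 highest readings came from wild-type replicates 1 and 5, the arrays that also stood apart in Vip. With all arrays the log2 difference was -0.52 (SE 0.34), and without those 2 arrays it was 0.03. Tac1 read 17.6 to 81.5 in Apoe-deficient arrays and 24.8, 58.0, 6.1, 31.2 and 68.1 in wild-type replicates 1 to 5, above the reference in 0 of 11. Its groups overlapped widely, with a log2 difference of 0.43 (SE 0.35).

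**Figure D2:**
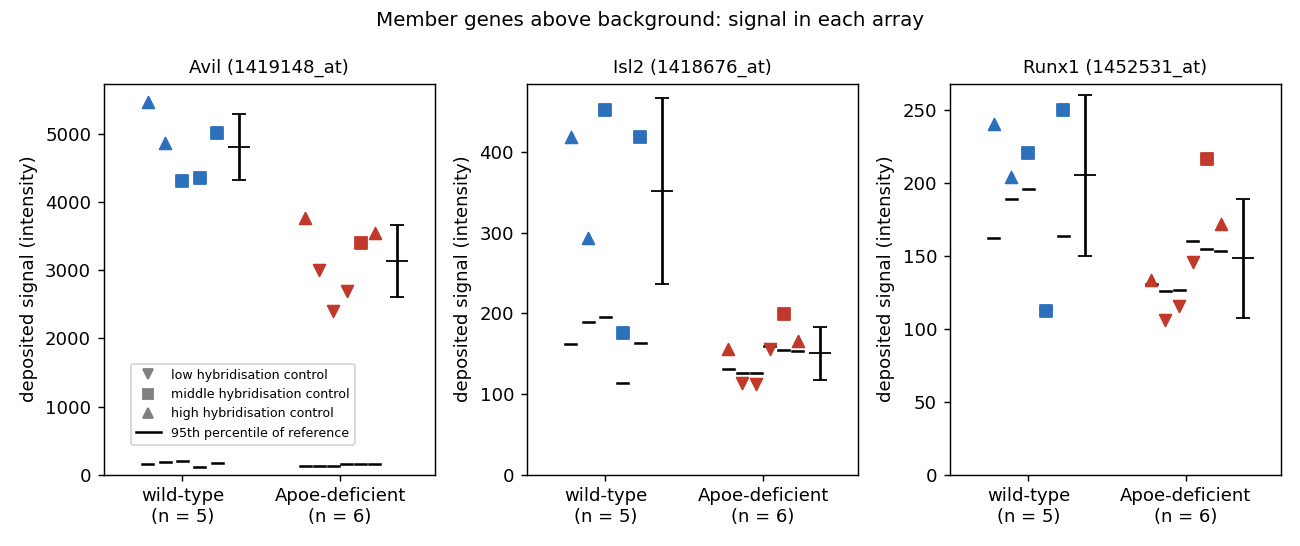
Deposited signal (intensity, axes from 0) of the 3 member probe sets above background in each of 5 wild-type and 6 Apoe-deficient arrays, with group mean and SD; the symbol gives the hybridisation control level and the short line that array's reference background. Avil separates the genotypes, Isl2 does so except for wild-type replicate 4, and Runx1 overlaps.

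**Figure D3:**
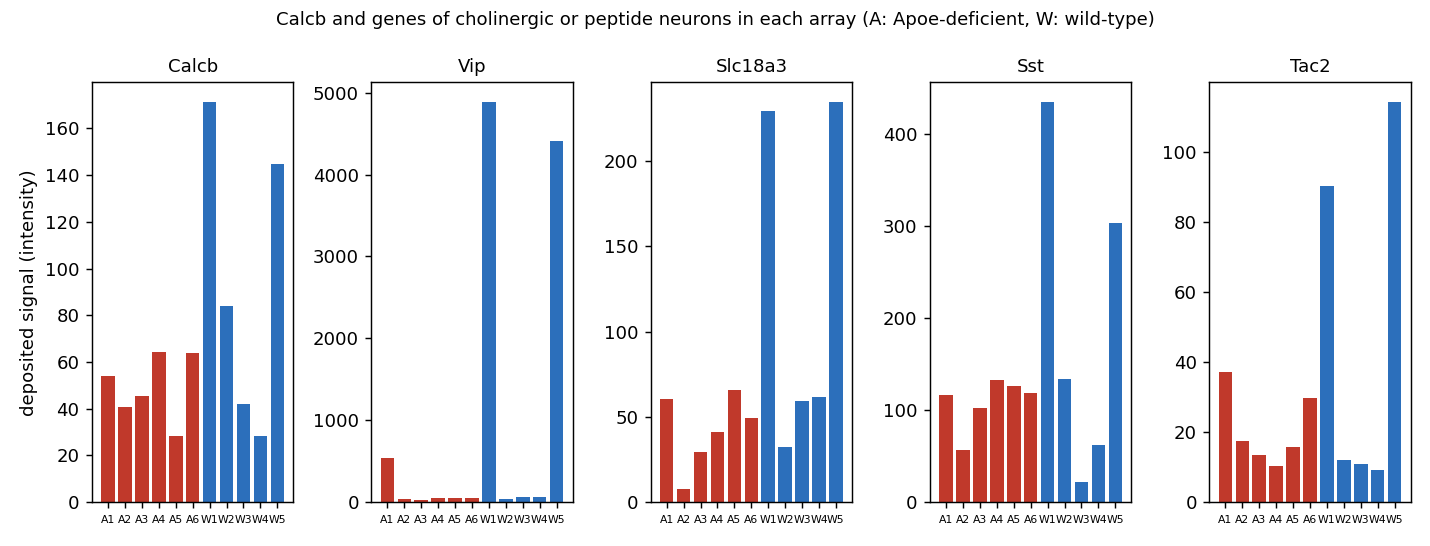
Bars give the deposited signal (intensity) of Calcb, Vip, Slc18a3, Sst and Tac2 in each of the 6 Apoe-deficient (A) and 5 wild-type (W) arrays, each panel with its own axis from 0. Wild-type replicates 1 and 5 are the highest 2 arrays in all 5 panels.

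In the test across all genes, 2 of the 3 members that could be tested passed the threshold, Isl2 and Avil, both lower in Apoe-deficient ganglia. Over all 8433 genes, 0.676% were called lower, 1.26% higher and 1.93% in either direction. Since the members were proposed from this contrast, nothing is read from that count. Without the filter, over all 20380 single-gene probe sets, 0.216% were called lower and 0.765% in either direction.

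The calls moved with the arrays named above. When the level of the hybridisation controls was a block, the log2 difference of Isl2 was -0.92 (SE 0.26) and that of Avil -0.43 (SE 0.11), and neither passed the threshold. Without the 3 low arrays they were -0.92 (SE 0.25) and -0.41 (SE 0.10), and without wild-type replicates 1 and 5 they were -0.90 (SE 0.24) and -0.52 (SE 0.15), again with neither call kept. Avil also lost its call when any 1 of wild-type replicates 1, 2 or 5 was left out, at -0.57, -0.61 and -0.59. Its sign and that of Isl2 were negative in all 27 settings tried, in the fit of every probe set. The choice of filter or probe set cannot move a difference in that fit, so those settings add nothing to the count.

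Within the high control level, Isl2 read 155.6 and 165.5 in the 2 Apoe-deficient arrays against 292.9 and 418.5 in the 2 wild-type arrays, a log2 difference of -1.06. Avil read 3541 and 3764 there against 4863 and 5473, a difference of -0.50. In the middle level, which holds 1 Apoe-deficient array, the differences were -0.71 for Isl2 and -0.39 for Avil. The low level holds Apoe-deficient arrays only.

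**Figure D4:**
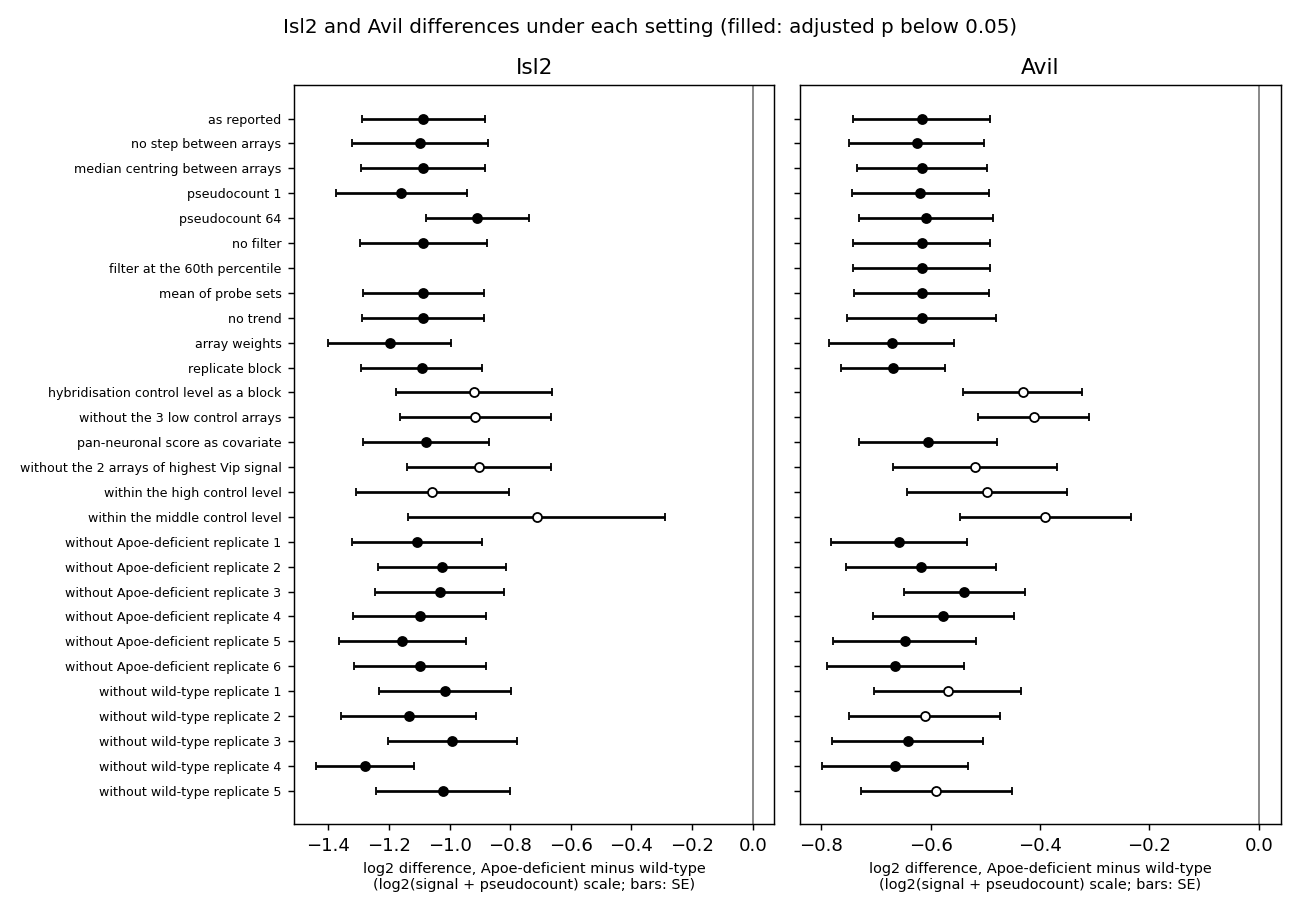
Log2 difference (Apoe-deficient minus wild-type, SE as bars) of Isl2 and Avil under each processing alternative and with each array left out; filled symbols have an adjusted p below 0.05. Isl2 lies between -1.28 and -0.71 and Avil between -0.67 and -0.39.

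Other genes linked to sensory neurons or to the members were taken from 8 lists ordered by role, called the other sensory genes below. Of these 110 genes, 90 had a single-gene probe set, 48 were above background and 53 could be tested. The lists also hold genes not particular to sensory neurons, such as Scg2, Furin and Gsn, so these counts do not measure a sensory programme. In the limma test 2 of the 53, 3.77%, passed the threshold, 1 higher and 1 lower, against 1.93% of all 8433 genes tested. Nothing is read from so small a count. The median log2 difference was -0.07 against -0.04 for all genes tested. The list of receptors and channels also holds Nefh, Pvalb, Slc17a6 and Fxyd2, which are neither. Of its 24 genes with a probe set, 13 exceeded the reference on 0 arrays and 8 on all 11. Examples of both kinds were picked after their values were seen. At background were Scn10a (the sodium channel Nav1.8), P2rx3 (an ATP-gated channel) and Trpm8 (the cold receptor), and above it on every array were Htr3a (a serotonin-gated channel), Trpv2 (a cation channel), Ret and Gfra3 (receptor subunits for GDNF family ligands). The Scn10a mean signal was 10.5 in Apoe-deficient and 11.96 in wild-type ganglia, while that of Htr3a was 5982 and 7241 and that of Gfra3 457 and 564.

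The list of receptors and channels held both called genes. Osmr, the oncostatin M receptor subunit, rose in Apoe-deficient ganglia, from a wild-type range of 123.2 to 214.4 (177 ± 33.6, SD, n = 5) to a range of 228.4 to 487.5 (354 ± 90.6, SD, n = 6). The groups did not overlap, and on the log2 scale it was higher by 0.94 (SE 0.19; adjusted p = 0.022 in limma). Its wild-type signals lay near the reference, which no Osmr probe set exceeded on more than 9 arrays. Fxyd2, a regulatory subunit of the Na,K-ATPase, fell, from 4504 ± 1020 (SD, n = 5) in wild-type to 2408 ± 378 (SD, n = 6) in Apoe-deficient arrays. Its groups overlapped, and its log2 difference stood at -0.88 (SE 0.15; adjusted p = 0.0097 in limma). Neither passed the threshold when control level was a block, without the 3 low arrays or without wild-type replicates 1 and 5, with differences of 0.91, 0.93 and 0.99 for Osmr and of -0.79, -0.81 and -0.82 for Fxyd2. Osmr also missed it without wild-type replicate 2, 3 or 5, at adjusted p values of 0.062, 0.0504 and 0.0507. Within the high control level the differences were 1.41 for Osmr and -1.13 for Fxyd2. In the middle level, which holds 1 Apoe-deficient array, they were 0.21 and -0.41. Of the 24 genes of this list with a probe set 10 were above background, and the 11 tested had a median difference of -0.24.

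At least 1671 of the 8433 genes tested had an unadjusted p below 0.05 in limma. The unadjusted counts given for each list below are to be read beside that share. Among sensory transcription factors 2 of 8 measured genes were above background and 0 of 2 tested passed the threshold in limma, nor did either reach an unadjusted p below 0.05. These were Isl1, the partner of Isl2 that sympathetic neurons also use, at 2670 ± 649 (SD, n = 6) against 2728 ± 339 (SD, n = 5), a log2 difference of -0.05, and Eya1 at 0.35. Among 13 partners of LIM homeodomain and POU4 factors 0 of 8 tested passed (1 at an unadjusted p below 0.05), with Lhx3 at -0.52 and Lmo2 at 0.25 nearest. Among RUNX partners 0 of 7 tested passed (3 unadjusted). The kinase Hipk2 stood at -0.58 without overlap of the groups (limma adjusted p = 0.055), and Cbfb, the obligate binding partner of the RUNX factors, at 0.28 (0.19).

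Of the peptide genes 0 of 8 tested passed the threshold in limma, and 0 had an unadjusted p below 0.05. Gal, galanin, had a log2 difference of -0.91 (SE 0.57), which was -0.11 (SE 0.57) without wild-type replicates 1 and 5. Scg2, a granin of dense-core vesicles, had 0.31. Among receptors and signalling proteins for CGRP and tachykinins 0 of 6 tested passed (3 unadjusted), with Calcrl, the CGRP receptor's membrane-spanning subunit, at 0.57, and Crcp, a protein linked to its signalling, at -0.38. Calcrl exceeded the reference on no more than 3 arrays and so was not above background. The genes of peptide precursor processing gave 0 of 6 (2 unadjusted), with Pcsk1 at 0.43 and Furin at -0.44. The gelsolin family of advillin gave 0 of 5 (1 unadjusted), with Gsn, gelsolin, at 0.30 and Flii at -0.21. Whether they differ from Avil was not tested.

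**Figure D5:**
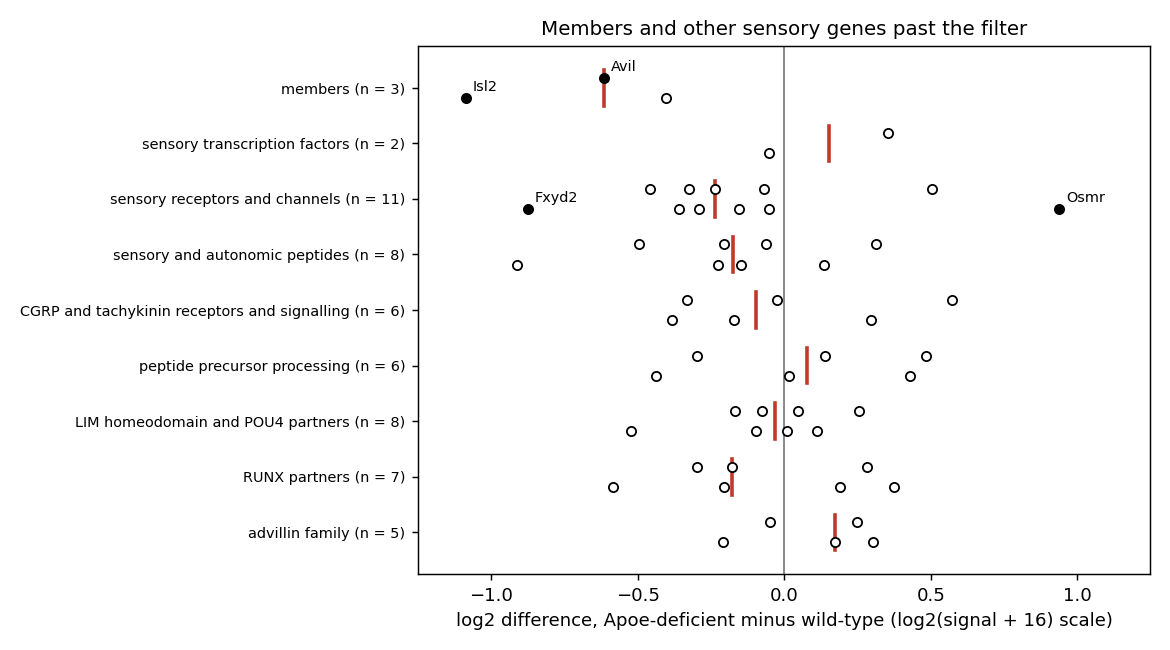
Log2 difference (Apoe-deficient minus wild-type) of each tested gene of the member list and the 8 other sensory lists, with list medians as red bars and called genes as filled symbols. Of the 53 other genes only Osmr and Fxyd2 passed the threshold.

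Markers of other cells were set beside these values. Noradrenergic genes gave 0 of 12 called in limma (4 at an unadjusted p below 0.05) with a median difference of -0.01, and pan-neuronal genes 0 of 11 (2 unadjusted) with a median of 0.03. With the mean of the pan-neuronal genes as a covariate the log2 difference of Isl2 was -1.08 and that of Avil -0.61. Of macrophage markers 9 of 12 tested rose (Cd68, Csf1r, Mrc1, Lyz2, C1qa, C1qc, Tyrobp, Ctss and Mpeg1, by 0.53 to 1.43 on the log2 scale), and their summed signal was 10842 to 16382 in Apoe-deficient and 6187 to 8109 in wild-type arrays. Of mast cell markers 4 of 7 rose (Cpa3, Tpsb2, Cma1 and Mcpt4, by 1.48 to 2.47), with sums of 1997 to 5443 and 841 to 2032. Satellite glia and Schwann cell markers gave 0 of 10 (1 unadjusted) with a median of -0.24. Endothelial markers gave 0 of 7 (2 unadjusted) with a median of 0.05. Adipocyte markers gave 0 of 6 (1 unadjusted) with a median of -0.77 and a wide range of summed signal, 4095 to 28172 in Apoe-deficient and 13645 to 39951 in wild-type arrays. Of T and natural killer cell markers 0 of 11 measured were above background, as were 0 of 2 cholinergic markers. Even so, the cholinergic marker Slc18a3 exceeded the reference in wild-type replicates 1 and 5, and in no other array. The part of these cells in the members' values was not tested, and in whole tissue fewer cells of a type cannot be told apart from less RNA per cell.

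Within genotypes, the 2 low-signal transcription factors varied together. After the mean of each genotype was subtracted, Isl2 and the brightest Runx1 probe set correlated at Pearson's r = 0.91 over the 11 arrays, Avil and Isl2 at 0.51, and Avil and Runx1 at 0.56. Wild-type replicate 4 is low in both Isl2 and Runx1. All points share array, scaling and signal range, and both genes lie near background, so this is a description only. The genes most like Isl2 by the same measure were Wdr5 (0.96), Ccdc166 (0.93) and Tbx5 (0.92). Those most like Avil were Dync1h1 (0.97), Aldoc (0.96) and Vps53 (0.94), and those most like Runx1 were Wfs1 (0.95), Zranb1 (0.94) and Dnajc30 (0.94), each the highest of 8433 genes.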

How the data were processed

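Total RNA of 11 samples was measured on Affymetrix arrays. The authors deposited linear intensity signals made with GCOS 1.4, per the submitters' processing notes; the 2% trimmed mean of every array was near 500.2. The sources used here do not give the signal algorithm. Signals were taken to log2(signal + 16), which understates changes of low genes, and quantile normalised. Probe sets that exceeded the overall 40th percentile on 5 or more arrays were kept, with the brightest single-gene probe set a gene. Differences come from limma 3.58.1 (R 4.3.3; intensity trend, two-sided, Benjamini-Hochberg, threshold 0.05), tested on simulated data. Member probe sets below the filter were fitted without it. Differences of the 3 members past the filter are from the filtered fit. p-values measure only the spread between these samples, which may be technical. Replicate numbers did not pair the samples (correlations of deviations from -0.18 to 0.15). The members and lists were chosen with earlier results of these data known. Named were all members, called list genes, the 2 of smallest p in other sensory lists without a call, Th, Dbh and the 3 genes most like each tested member. Named outside this rule, after their values were seen, were Scn10a, P2rx3, Trpm8, Htr3a, Trpv2, Ret, Gfra3, Nefh, Pvalb, Slc17a6, Vip, Slc18a3, Sst, Tac2 and Cartpt. Alternatives varied normalization, pseudocount, filter, probe set rule, variance model, weights, arrays and blocks. Promoters matched 7 of the 8 members.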

Additional observations from a re-analysis of the deposited data

Results flagged for a closer look

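Of 20 groups of member readings examined, 3 had an array standing apart from the others by Dixon's ratio of gap to range, and chance gives about 1 in 20. The Runx1 probe set 1452531_at was lowest in wild-type replicate 4, with a signal of 111.9 and a ratio of 0.745. The Runx1 probe set 1427650_a_at, which is below background, was highest in Apoe-deficient replicate 6 (signal 38.1, ratio 0.708) and in wild-type replicate 1 (signal 22.3, ratio 0.871).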

How the results depend on the processing

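The signs of Isl2 and Avil were negative in 27 of 27 settings of the fit on every probe set, and no called value reversed. Filter and probe set choices cannot move the differences of that fit. The number of genes called, 163, was 668 with array weights (290 higher and 378 lower, against 106 and 57), 45 when the level of the hybridisation controls was a block, 24 without the 3 low control arrays and 37 without the 2 arrays of highest Vip signal, and 75 to 267 with each array left out (more than 1.5 times away for each array except Apoe-deficient replicates 5 and 6). Members called, 2, were 1 under the 60th percentile filter, which no longer tests Isl2, and 0 with the control level block, without the low arrays and without the Vip arrays (limma; 2 members at an unadjusted p below 0.05 in each), and 1 to 2 with each array left out (1 without wild-type replicate 1, 2 or 5). Other sensory genes called, 2, were 4 with the mean of a gene's probe sets, 6 with array weights, 0 with the control level block, 0 without the low arrays and 0 without the Vip arrays (9, 9 and 8 unadjusted), and 1 to 4 with each array left out (1 without wild-type replicate 2, 3 or 5, and 4 without wild-type replicate 4). The unadjusted counts in these settings are not read as support. The share of all genes below that p is not given for them, and the members were chosen from this contrast. Member probe sets above background, 3, were 1 at the 99th percentile of the reference and 1 when all 11 arrays had to exceed it. A replicate block by number, although the numbers do not pair the samples, called 185 genes (123 higher, 62 lower), 2 members among them. The Vip and pan-neuronal alternatives and those within a control level were chosen after seeing the data. Other settings left counts within 1.5 times. The causes of these shifts were not tested. Where arrays were left out, the fit also had fewer arrays. Signal near background limits Isl2 and Runx1, and the remaining members below it.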

Other observations

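Chosen after their values were seen, further peptide genes set wild-type replicates 1 and 5 apart from the other 9 arrays. Sst, somatostatin, read 434.6 and 303.4 in them against 22.4 to 133.8 in the others. Tac2, the neurokinin B precursor, read 90.2 and 114.2 against 9.2 to 37.1, and was not above the reference on any array. Gal, galanin, read 9353 and 7165 against 576 to 4230. Cartpt, another peptide precursor, followed in part: it read 229.2 and 219.2 against 80.7 to 426.1, with a median of 96.1 in the other 9 arrays. Its 426.1 was Apoe-deficient replicate 1. Of those 9 arrays that one was also the highest for Vip and Tac2, but not for Slc18a3, Sst, Gal or Calcb. Calcb, at 171.2 and 144.9 in wild-type replicates 1 and 5 against 28.2 to 84.0, lay with the first group of genes. Without these 2 arrays limma called 37 genes, of which 32 were higher and 5 lower with Apoe absent.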
